A study of Mus musculus with 2 samples.

Results

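The nuclear-encoded respiratory chain genes were described in forebrain RNA of mouse embryos. The members are the protein-coding genes, listed in the gene tables of both libraries, whose symbols name subunits of complexes I to V: Nduf followed by a, b, c, s or v and a number, Sdha to Sdhd, Uqcr, Cyc1, Cox4 to Cox8, and symbols that start with Atp5. Assembly factors and pseudogenes were left out. The rule found 85 members among 21474 listed protein-coding genes and 43346 listed genes in all. Of these members, 35 belong to complex I, 4 to complex II, 9 to complex III, 20 to complex IV and 17 to complex V. The rule used names and not levels, but the members were proposed with earlier results of these data known.

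The study sequenced total RNA longer than 200 nt from forebrain of B6NCrl mouse embryos aged 16.5 days, when the forebrain holds dividing progenitors, migrating cells and young neurons. Both libraries were made from pooled tissue of healthy male and female embryos, with 10 ng of starting RNA and added ERCC spike-in RNAs. The single group has 2 biological replicates, and the pool of replicate 2 held 41 embryos, while the labels give no number for replicate 1. With no second tissue, age or treatment, levels are given for each library in TPM, a share of transcripts that accounts for transcript length, and conditions could not be tested against each other.

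The respiratory chain lies in the inner mitochondrial membrane. Complexes I and II pass electrons from NADH and succinate to ubiquinone, complex III passes them to cytochrome c, and complex IV passes them to oxygen. Complexes I, III and IV pump protons, and complex V, the ATP synthase, uses the returning protons to make ATP. The mitochondrial genome codes for a few central subunits of complexes I, III, IV and V, and all other subunits are imported products of nuclear genes. Several complex IV subunits, and the c subunit of ATP synthase, are coded by more than 1 nuclear gene, with isoforms known for particular tissues such as heart and skeletal muscle or testis.

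The libraries held 31211128 and 26957198 expected counts on genes in replicates 1 and 2, and spike-ins took 5.93% and 4.10% of TPM. Markers of the telencephalon were present, from Neurod6, a factor of cortical neurons, with a mean of 439 TPM to Emx2, a factor of cortical progenitors, with 11.3 TPM. Markers of other cells were present too: 7 red blood cell genes summed to 10593 and 13409 TPM, and 5 genes of meningeal fibroblasts summed to 194 and 453 TPM. In bulk tissue, fewer cells of a type and less RNA per cell cannot be told apart. The labels call the libraries biological replicates and do not say how the pools were related.

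Respiratory chain genes were among the more abundant messages of the forebrain. The median member was at 269 and 254 TPM in replicates 1 and 2, and the median over their means was 262 TPM, beside 5.05 TPM for the median protein-coding gene. In both libraries, 81 of 85 members were at 1 TPM or more, 78 at 10 TPM or more and 74 at 100 TPM or more. Of all protein-coding genes, 60.7%, 40.9% and 7.74% passed the same limits. The members together took 2.84% of the TPM on genes in replicate 1 and 2.76% in replicate 2, but only 1.18% and 1.14% of the expected counts. Their transcripts are short, with a median length of 658 bases beside 2068 bases over protein-coding genes, and the median member was covered by 2658 counts, the mean of the libraries.

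**Figure D1:**
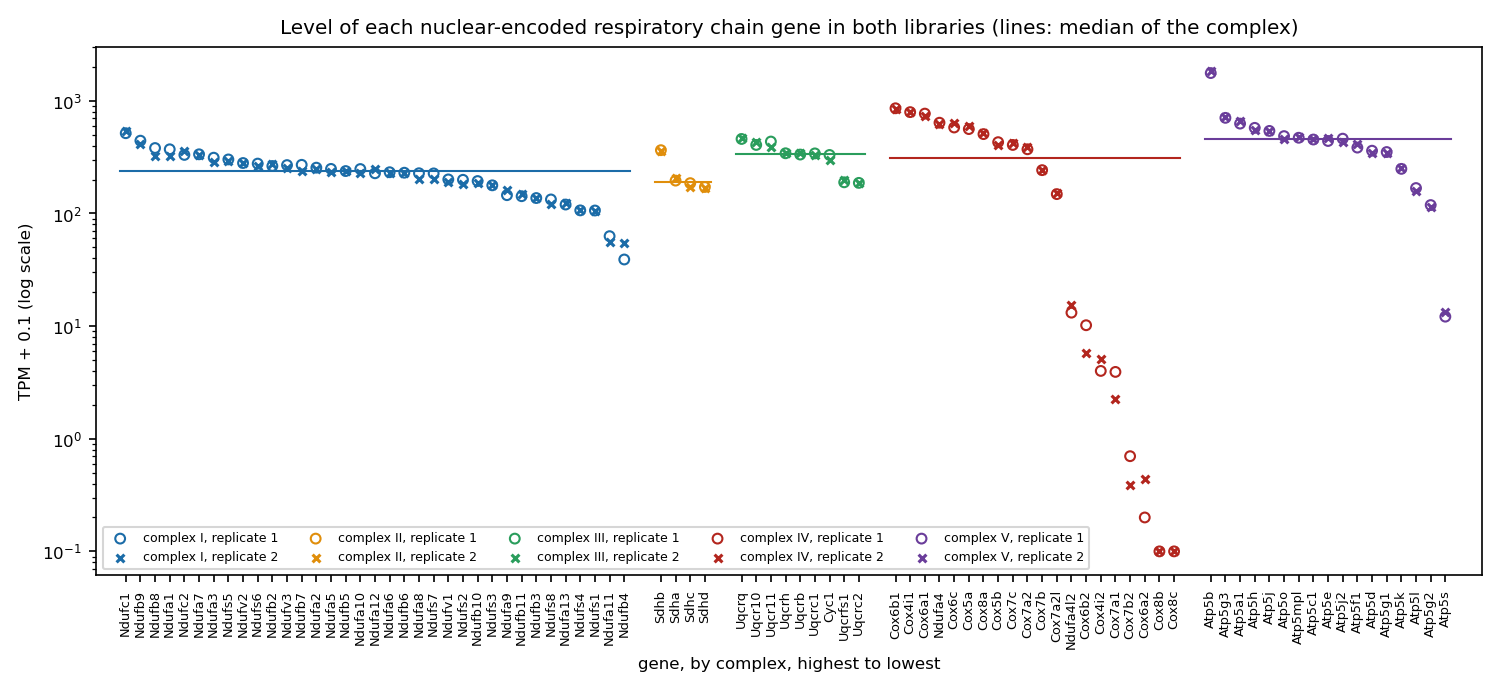
TPM + 0.1 on a log axis for each of the 85 genes, grouped by complex and ordered from highest to lowest, with a circle for replicate 1, a cross for replicate 2 and a line at the complex median. All genes of complexes I, II and III lie above 38 TPM, while complex IV divides into 12 genes at 100 TPM or more and 8 genes from 0 to about 15 TPM.

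Complex I, the NADH dehydrogenase, had a median of 237 TPM over its 35 members. The highest was Ndufc1, a small membrane subunit, with 516 and 542 TPM in replicates 1 and 2. Next came Ndufb9, an accessory subunit of the membrane arm, with 443 and 411 TPM. With coding transcripts alone, Ndufc1 had 271 and 274 TPM and stood below Ndufb9, whose TPM was 100% coding. All 35 members were above 10 TPM in both libraries, and 33 were above 100 TPM. The exceptions were Ndufa11, an accessory subunit of the membrane arm, with 62.8 and 55.7 TPM, and Ndufb4, another accessory subunit, with 38.9 and 54.2 TPM. Ndufa11 was not poorly covered, with 3019 and 2249 counts beside a member median of 2658. Its only listed transcript has 2661 bases, beside a member median of 658, and TPM is per length. The value of Ndufb4 is uncertain, since most of the TPM of its sequence was assigned to an identical copy elsewhere in the genome, described further on.

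The 7 core subunits of complex I, which bind NADH or carry the iron-sulfur clusters, had a median of 191 TPM, beside 240 TPM for the 28 accessory subunits. Ndufv2, a core subunit of the NADH-binding module, led them with 280 and 279 TPM. Ndufv1, which binds NADH and the flavin, had 200 and 189 TPM. Ndufs1, the large iron-sulfur subunit, was the lowest with 106 TPM in both libraries. The ranges of core and accessory subunits overlapped: 1 core subunit lay above the accessory median, and the accessory subunits ran from 46.6 to 529 TPM on the mean.

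Complex II, succinate dehydrogenase, has all of its subunits coded in the nucleus. Sdhb, the iron-sulfur subunit, had 365 and 356 TPM and stood above the other 3 members in both libraries. Sdha, the flavoprotein that oxidises succinate, had 196 and 205 TPM, and the membrane anchors Sdhc and Sdhd had means of 179 ± 9.72 and 170 ± 3.06 TPM (SD, n = 2). Sdhc and Sdhd were nearly level in the second library, at 172 and 167 TPM.

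In complex III, which oxidises ubiquinol, the 5 small subunits had a median of 410 TPM and the 4 larger ones 253 TPM. Uqcrq, a small membrane subunit, was the highest with 458 and 469 TPM. Coding transcripts alone gave Uqcrq 336 and 326 TPM, below Uqcr11 with 425 and 375 TPM and Uqcr10 with 385 and 413 TPM. The lowest was Uqcrc2, a core protein on the matrix side, with 187 and 185 TPM. Uqcrfs1, the Rieske iron-sulfur protein, was just above it in both libraries with 189 and 198 TPM. The other core protein, Uqcrc1, was higher, with 341 and 330 TPM, as was the cytochrome Cyc1, with 331 and 297 TPM.

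Complex IV, cytochrome c oxidase, had a median of 311 TPM over its 20 members, which ran from 0 to 851 TPM on the mean. Its 12 abundant members had a median of 547 TPM. Cox6b1, a subunit on the cytochrome c side, was the highest of these with 859 and 843 TPM, and Cox4i1, the isoform of subunit 4 used in most tissues, had 794 and 793 TPM. Cox6a1, the isoform of subunit 6a found outside muscle, had 770 and 732 TPM. These genes kept the order Cox6b1, Cox4i1, Cox6a1 in both libraries, and the gap between the last of them and Ndufa4 was larger than the difference between libraries.

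Ndufa4 was once counted with complex I and is now placed in complex IV. It had 639 and 617 TPM. Cox6c, a small membrane subunit, had 580 and 629 TPM, and Cox5a, a subunit on the matrix side, had 561 and 599 TPM. Ndufa4 and Cox6c changed order between the libraries and so do not differ beyond their spread. The lowest of the 12 was Cox7a2l, a protein related to Cox7a that is known to join complexes III and IV in supercomplexes, with 148 and 153 TPM.

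ATP synthase had the highest median of the complexes over all members, 455 TPM, which was 2.40-fold that of complex II. Among members at 100 TPM or more the order turned, with 456 TPM for 16 members of complex V and 547 TPM for the 12 of complex IV. Atp5b, the catalytic beta subunit (ENSMUSG00000025393, chromosome 10, 128083273 to 128090391 in GRCm38), was the most abundant member of all with 1764 and 1839 TPM. Atp5a1, the alpha subunit that alternates with beta in the F1 head, had 628 and 668 TPM. Atp5b was therefore above Atp5a1 by more than the spread of either, and coding transcripts alone gave it 1345 and 1366 TPM. In the enzyme, alpha and beta stand in equal number. The other F1 subunits were lower: Atp5c1, the rotating gamma subunit, had a mean of 457 ± 4.97 TPM, Atp5e, the epsilon subunit, 455 ± 21.8 TPM, and Atp5d, the delta subunit, 352 ± 12.8 TPM (SD, n = 2).

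The 4 members of the peripheral stalk, which holds the F1 head still, had a median of 507 TPM. Atp5h led them with 575 and 546 TPM, and Atp5f1, the long b subunit, was lowest with 384 and 410 TPM. The 4 small membrane subunits had a median of 348 TPM, from 472 TPM for Atp5mpl, a small proteolipid, to 163 TPM for Atp5l. Atp5s, a coupling factor that is no structural subunit of the enzyme, stood far below the rest with 12.03 and 13.23 TPM. Leaving it aside, 16 of 17 members reached 100 TPM in both libraries.

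The start sites of these genes were searched for short patterns known as binding motifs of regulators of respiratory genes. Of the 85 members, 68 had a promoter in the RefSeq table for GRCm38.p6, which holds the 250 bases before and the 50 bases after a start site. Both strands were read, and a gene counted once however many matches it had. The NRF1 pattern GCGCANGCG was found in 20 members, 29.4% of those with a promoter, beside 9.96% of all 16655 genes with a promoter and 20.9% of the 1413 genes at 100 TPM or more. The ETS pattern CCGGAAG, which GABP binds, was found in 16 members, or 23.5%, beside 13.3% of all genes and 25.4% of genes at 100 TPM or more.

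A pattern for YY1, AANATGGCG, stood in 10 members, or 14.7%, beside 3.78% of all genes and 8.42% of genes at 100 TPM or more. The ETS and YY1 patterns can share letters where they adjoin. Any of these 3 patterns was present in 38 members, which is 55.9%, beside 23.3% of all genes and 46.1% of genes at 100 TPM or more. TATAAA was in 7 members, or 10.3%, beside 14.4% and 10.2%. Of the 5 members with a promoter that were under 20 TPM, 0 held any of the first 3 patterns and 2 held TATAAA. A match says only that these letters are in the window.

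The following stretches are the 150 bases before the RefSeq start site of abundant members in which patterns were found, shown so that their spacing can be seen. They are written 5′ to 3′ on the strand of the gene, with the matched letters of either strand in capitals. In Cox6a1 (chr5:115348959-115349108, minus strand) the NRF1 pattern ended 109 bases and the ETS pattern 10 bases before the start site, and in Atp5h (chr11:115419920-115420069, minus strand) they ended 133 and 32 bases before it. Cox6b1 (chr7:30626115-30626264, minus strand) held an ETS pattern that ended 22 bases before the start. Atp5j (chr16:84834977-84835126, minus strand) held YY1 and ETS patterns that ended 80 and 55 bases before it. By GENCODE positions these genes begin farther upstream than the RefSeq start sites. The whole Atp5j stretch lies inside its gene span, which reaches 84835625. The ETS letters of Cox6a1, Atp5h and Cox6b1 also lie inside, since those spans reach 115348981, 115419962 and 30626151. The NRF1 letters of Cox6a1 and Atp5h lie outside. Ndufa7 (chr17:33824495-33824644, plus strand) is an accessory subunit of complex I with 335 and 328 TPM. It held a TATAAA match on the opposite strand and a YY1 pattern, 120 and 10 bases before the RefSeq start site. Its GENCODE span starts at 33824572, so the YY1 letters lie inside the gene and the TATAAA match before it.
Cox6a1: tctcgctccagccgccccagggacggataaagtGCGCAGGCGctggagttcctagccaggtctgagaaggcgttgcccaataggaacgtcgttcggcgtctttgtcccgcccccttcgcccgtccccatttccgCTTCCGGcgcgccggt
Atp5h: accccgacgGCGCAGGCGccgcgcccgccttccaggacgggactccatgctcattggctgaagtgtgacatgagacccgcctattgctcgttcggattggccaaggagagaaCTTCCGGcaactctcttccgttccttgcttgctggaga
Cox6b1: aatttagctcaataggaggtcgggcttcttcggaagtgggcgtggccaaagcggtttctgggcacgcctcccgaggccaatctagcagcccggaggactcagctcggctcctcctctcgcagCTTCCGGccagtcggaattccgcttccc
Atp5j: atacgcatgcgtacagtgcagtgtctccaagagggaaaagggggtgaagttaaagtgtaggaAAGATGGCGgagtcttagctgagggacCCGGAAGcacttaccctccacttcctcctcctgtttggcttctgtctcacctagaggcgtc
Ndufa7: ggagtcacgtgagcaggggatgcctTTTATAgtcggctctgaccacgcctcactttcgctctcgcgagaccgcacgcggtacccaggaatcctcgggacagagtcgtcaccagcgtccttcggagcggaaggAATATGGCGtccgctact
In the Cox6a1 and Atp5h stretches the NRF1 letters are the same, GCGCAGGCG, and lie farther from the start site than the ETS letters, which both carry as CTTCCGG.

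Isoforms known from muscle, testis and other restricted cells ran from 0 to 15.2 TPM, while the widely used isoform of each pair was at 148 TPM or more. Over 11 pairs chosen by name, the first gene named was the higher one in both libraries in 11 of 11. Ratios are of TPM + 0.1 within a library, as log2, mean ± SD (n = 2). The size of the ratio was less certain than its direction, because the low gene of a pair often rested on few counts.

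Cox8a, the liver type of subunit 8, had 506 and 522 TPM. Its muscle isoform Cox8b (chromosome 7, 140898945 to 140900446) and its testis isoform Cox8c (chromosome 12, 102899316 to 102900526) had 0 counts in both libraries. With 0 counts, up to 3 counts remain possible, or 0.608 and 0.724 TPM for Cox8b in replicates 1 and 2 and 0.424 and 0.505 TPM for Cox8c. Cox8a was thus at least 833-fold and 721-fold above Cox8b, and at least 1194-fold and 1034-fold above Cox8c. These bounds cover counting error only, as do all counting intervals given here.

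Cox6a2, the heart and muscle isoform of subunit 6a, had 1 count in replicate 1 and 3 counts in replicate 2, or 0.10 and 0.34 TPM. Taken from counts per effective length without the pseudocount, as are all folds given for pairs, the Cox6a1 to Cox6a2 ratio was 8077-fold with a 95% exact counting interval from 1450 to 319018 in replicate 1, and 2150.4-fold, from 736 to 10427, in replicate 2. Cox7a1, the muscle isoform of subunit 7a, had 19 and 9 counts, or 3.82 and 2.15 TPM. Its widely expressed counterpart Cox7a2 had 371 and 386 TPM, a log2 ratio of 6.99 ± 0.61. Of 11 skeletal and cardiac muscle markers, 3 reached 1 TPM in both libraries, and the list summed to 11.2 and 21.1 TPM. For Cox7a1 the log2 ratio of replicate 2 over replicate 1 was -0.81, and its counting interval, from -2.17 to 0.37, included equality. The part of muscle RNA in these values was not tested.

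Cox7b2 and Cox6b2 are isoforms known from testis. Cox7b2 had 5 and 2 counts, or 0.60 and 0.29 TPM, against 242 and 244 TPM for Cox7b, the X-linked subunit used in most tissues. Cox6b2 was better covered, with 79 and 35 counts, or 10.1 and 5.64 TPM. Cox6b1 exceeded it 85.2-fold in replicate 1 and 149-fold in replicate 2, and the exact counting intervals, 68.3 to 107.6 and 107.5 to 215, overlapped only at their ends. Of 6 male germ cell markers, 3 had no counts in either library and the list summed to 0.27 and 0.06 TPM. The source of the Cox6b2 reads was not tested.

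Cox4i2 and Ndufa4l2, isoforms known from low-oxygen responses and from vessel wall cells, were low but counted in both libraries. Cox4i2 had 46 and 50 counts, or 3.90 and 5.05 TPM, and the Cox4i1 to Cox4i2 ratio was 7.45 ± 0.26 on the log2 scale. Ndufa4l2 had 211 and 206 counts, or 13.1 and 15.2 TPM, and the Ndufa4 to Ndufa4l2 ratio was 5.47 ± 0.19. Both genes were higher in replicate 2 by TPM. All 8 markers of mural cells, Pdgfrb and Rgs5 among them, were at 1 TPM or more, and their sum was 123.3 and 150.5 TPM. By ratio 5 of the 8 were higher and 3 lower in replicate 2, and Vtn, with 63.7 and 84.9 TPM, made up most of the difference in the sum. The part of mural cells in these 2 levels was not tested.

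The 3 genes for the c subunit, whose ring turns in the membrane, are unlike the other pairs in that each was abundant. They code for the same mature protein with different import sequences. Atp5g3 had 706 and 724 TPM and held 60.1% and 61.2% of the c subunit TPM. Atp5g1, with 351 and 345 TPM, held 29.9% and 29.1%, and Atp5g2, with 119 and 115 TPM, held 10.1% and 9.70%. The order Atp5g3, Atp5g1, Atp5g2 was the same in both libraries, but all 3 shares depend on how reads were divided between Atp5g1, Atp5g2 and their processed copies. With copies added, Atp5g3 held 42.8% and 45.05%, Atp5g1 38.3% and 33.8%, and Atp5g2 18.9% and 21.1%.

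**Figure D2:**
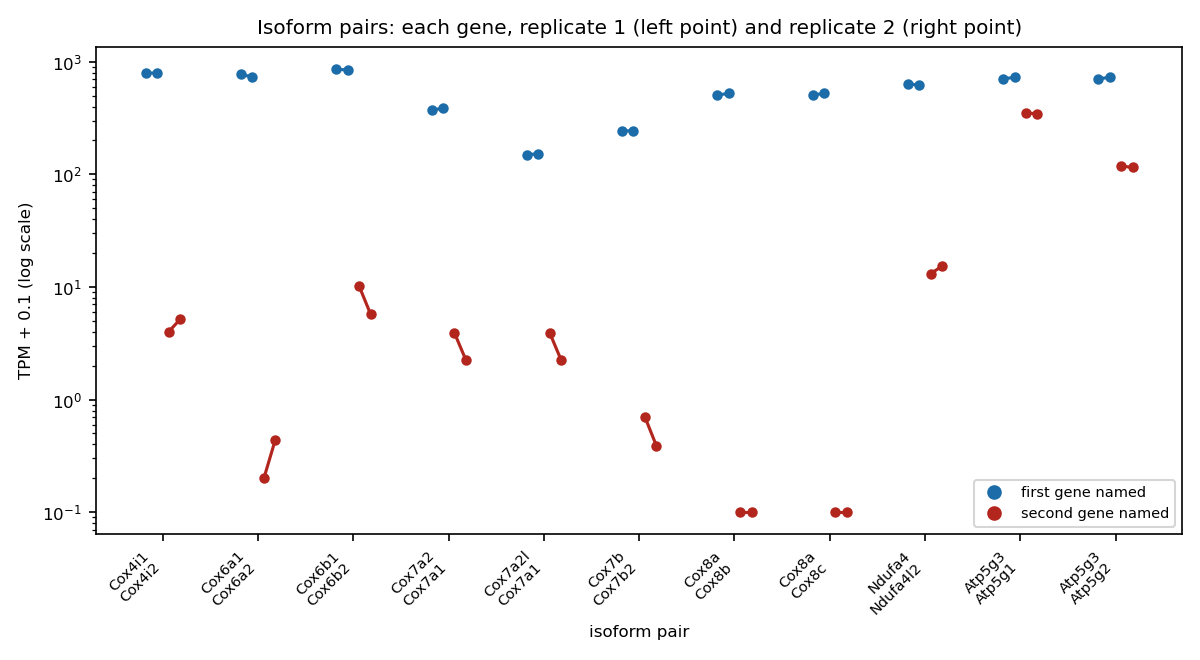
TPM + 0.1 on a log axis for the 2 genes of each of 11 isoform pairs, the first gene named in blue and the second in red, with replicate 1 as the left point and replicate 2 as the right point of each joined couple. The blue points lie between 148 and 859 TPM, while the red points lie at about 15 TPM or lower except for Atp5g1 and Atp5g2.

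Of the 7 members under 10 TPM on the mean, 4 lie on chromosome 7: Cox6b2, Cox7a1, Cox6a2 and Cox8b. That chromosome also holds Cox6b1, the abundant counterpart of Cox6b2, as well as Ndufc2, Ndufa3 and Uqcrc2, which were at 186 to 346 TPM on the mean. The X chromosome holds 3 members: Ndufa1, with 371 and 325 TPM, Cox7b, and Ndufb11, with 142 and 149 TPM.

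Near-identical copies elsewhere in the genome bear on the levels of 5 members. Sequences of the members' coding transcripts were matched to other listed genes, and a copy was counted at 90% identity or more over 50% or more of its own length. There were 65 such copies for 33 members, of which 61 are annotated as pseudogenes, and 52 members had none. Only 5 copies reached 10 TPM in both libraries, and each is a processed pseudogene, a DNA copy of a spliced message. A short read from such a stretch fits gene and copy alike, so its assignment is a model's estimate, and the tables do not show which of the loci was transcribed.

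Atp5l, the g subunit of ATP synthase, had 168 and 158 TPM, while its copy Gm10221 (chromosome 5, 24581554 to 24581862), identical over all of its 309 bases, was given 637 and 708 TPM. The 8 copies of Atp5l together took 79.1% and 81.8% of the joint TPM, and the sum was 837 TPM. The authors' posterior SD of the Atp5l count was 5.75% and 6.18% of the count, and for Ndufb4 3.40% and 3.41%, while for Atp5b it was 0. Ndufb4 had a similar split: its copy Ndufb4c (chromosome 15, 73809507 to 73809896), identical over 390 bases, was given 246 and 251 TPM, and copies took 86.3% and 82.3% of the sum. With the TPM of its copies added, Ndufb4 stood at 295 TPM, beside the complex I median of 237 TPM. Such sums add TPM of sequences of unlike length, and Ndufb4 had a length of 636 bases in replicate 1. By counts, Ndufb4c held 1344 and 1152, beside 392 and 404 for Ndufb4. The level of Ndufb4 with these counts at its own length was not computed, so its place in complex I stays uncertain.

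Cox7c, a small complex IV subunit with 406 and 424 TPM, shared all 192 bases of Gm12338 (chromosome 11, 75599763 to 75599954), which was given 436 and 472 TPM. TPM is per length, and by counts this copy held less than the gene, with 762 and 693 beside 3031 and 2688 for Cox7c. For Atp5g2 the copies took 61.9% and 66.2%, nearly all of it in Gm10175 (chromosome 7, 23946646 to 23947290), with 193 and 225 TPM. The copy of Atp5g1, Gm10039 (chromosome 11, 100361716 to 100362126), was 99.8% identical and was given 277 and 198 TPM. The libraries thus differed more in this copy than in Atp5g1 itself. In the other 28 members with copies, the share was at most 2.74% in either library, as for Ndufs5 in replicate 2, and 2.30% for Cox6c in replicate 1.

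**Figure D3:**
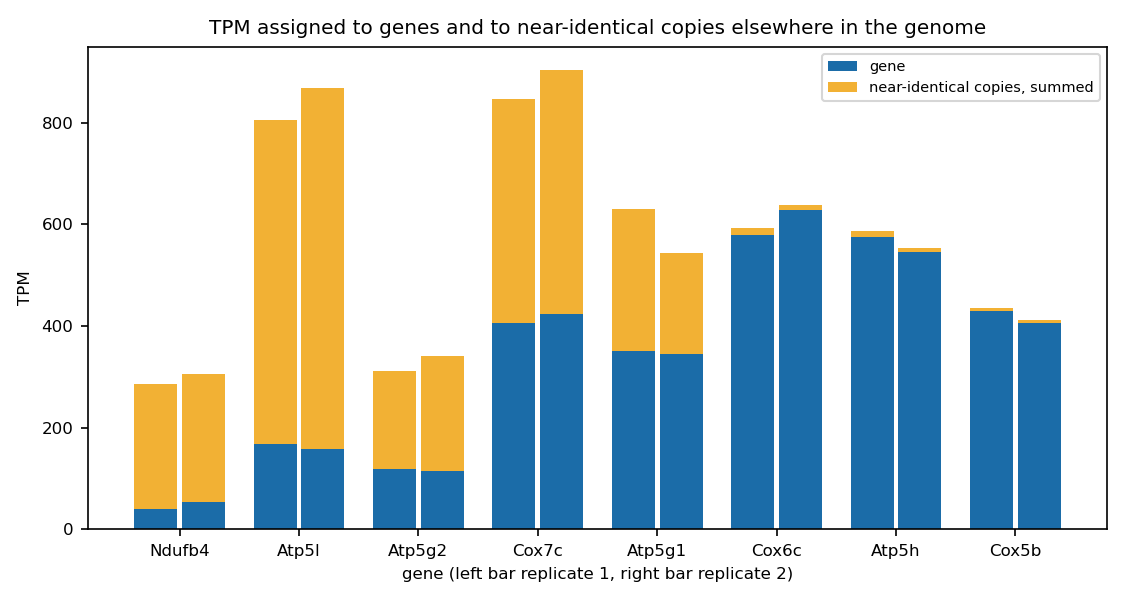
TPM given to 8 genes (blue) and, stacked on it, to their near-identical copies (yellow), with the left bar for replicate 1 and the right bar for replicate 2. For Ndufb4, Atp5l and Atp5g2 the copies hold more than the gene in both libraries, for Cox7c slightly more, and for Cox6c, Atp5h and Cox5b almost nothing.

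Annotated exons of 26 members overlap another listed gene, on the opposite strand in 24 of them. Cox4i1 shares 154 bases with Emc8, which was at 120 TPM. Atp5f1 shares 190 bases with Wdr77, at 100.4 TPM. Whether reads were counted by strand is not given in the sources used here, so reads of these stretches may be shared. Ndufb8 overlaps the readthrough model Gm20538 on its own strand, which was listed at 0 TPM.

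Most members were read mainly as 1 transcript, and the leading transcript was the same in both libraries. Of the 78 members at 10 TPM or more, 54 have 2 or more listed transcripts, and the leader agreed in 54 of 54. It held 80% or more of the gene's TPM, on the mean, in 36 of the 54, with a median of 91.3%. The same counts were not made over all genes. The most divided gene was Ndufa10, an accessory subunit of complex I: its leader, Ndufa10-204, held 27.4% and 31.2% and is annotated as a retained intron. In Ndufb5, 3 coding transcripts shared the gene, led by Ndufb5-203 with 47.8% and 46.4%.

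Coding leaders also held 51.8% and 49.8% of Ndufc1, 48.6% and 56.1% of Ndufv1, 55.9% and 61.4% of Ndufs1, and 59.7% and 59.6% of Atp5h. In 7 members more than 50% of TPM went to transcripts not annotated as protein-coding, and in 18 members more than 10% did. These are called non-coding here and include models annotated for nonsense-mediated decay. The shares over all genes were not computed, so these counts are not set against a background. Ndufa5, an accessory subunit of complex I, was the furthest, with only 10.6% and 8.19% of TPM in coding transcripts, or 22.7 of 240 TPM on the mean. Its leading transcript, Ndufa5-204, is a processed transcript of 453 bases that held 89.4% and 91.8%. Coding transcripts held 16.9% and 13.8% of Ndufa10, and 33.8% and 21.1% of Ndufb4. The Ndufb4 shares depend on how reads were divided with its copy Ndufb4c, which matches the coding transcript. The copy was given 1344 and 1152 counts, and the coding transcript Ndufb4-201 had 216 and 157.

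The other 4 were in complexes IV and V. Atp5j, the coupling subunit of the stalk, was led by the retained intron Atp5j-208 with 58.9% and 59.4%. Cox5b, a zinc-binding subunit of complex IV, was led by the processed transcript Cox5b-205 with 59.8% and 59.5%. In Atp5f1 the leader was Atp5f1-203, annotated for nonsense-mediated decay, with 61.6% and 70.2%. Cox7b was led by the retained intron Cox7b-203 with 47.3% and 45.7%, just above its coding transcript Cox7b-201 with 44.9% and 40.3%.

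These shares are per length, so a short fragment model can hold much TPM with few counts. In Cox5b the non-coding transcripts took 64.1% and 64.0% of TPM but 40.4% and 41.2% of counts, and in Atp5b 7.59% and 8.06% of counts for 23.8% and 25.7% of TPM. In Ndufa5 they took 85.5% and 88.4% of counts as well. With coding transcripts alone, the median member was at 236 TPM in place of 262 TPM. The coding annotation is that of a later release than the one the authors used, and the RNA was total RNA, which can hold unspliced transcripts.

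**Figure D4:**
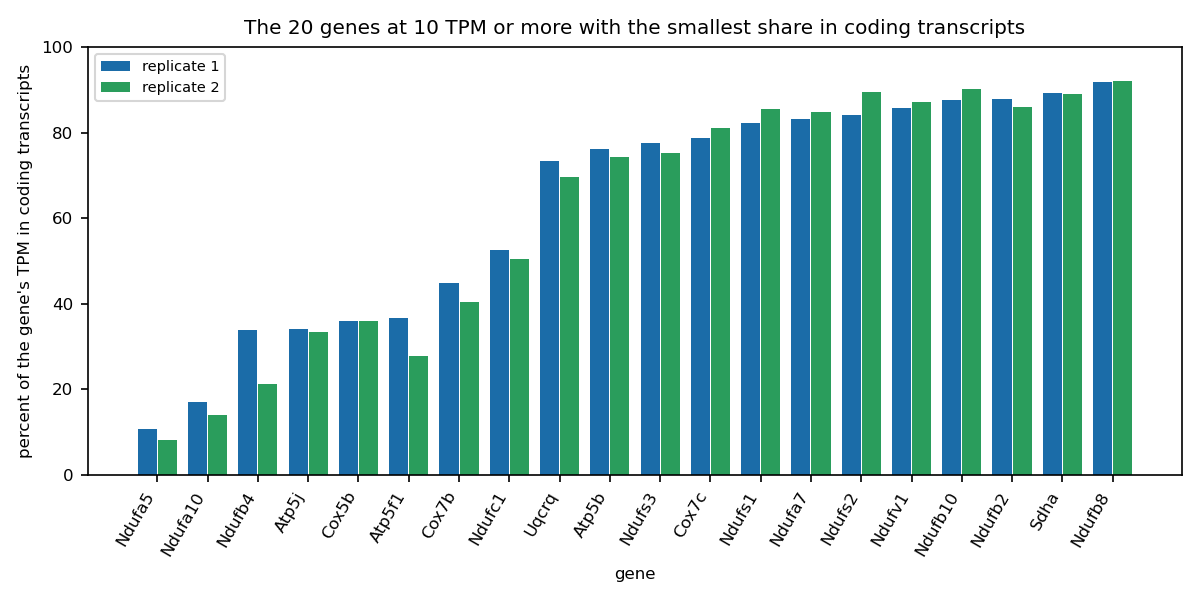
Percent of each gene's TPM in transcripts annotated as protein-coding, for the 20 genes at 10 TPM or more with the smallest share, in replicate 1 (blue) and replicate 2 (green). The first 7 genes, from Ndufa5 to Cox7b, stay under 50% in both libraries, and the libraries differ most in Ndufb4 and Atp5f1.

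Beside the nuclear subunits, the 13 subunits coded by the mitochondrial genome had a median of 1381 TPM. For complex I, the 7 mitochondrial genes summed to 5459 and 5485 TPM, which was 0.66 and 0.69 times the sum of the 35 nuclear members. For complex III, mt-Cytb, its cytochrome b, was at 3061 and 3138 TPM, 1.01 and 1.05 times the sum of the 9 nuclear members. The 3 mitochondrial genes of complex IV summed to 0.81 and 0.91 times the nuclear sum, and the 2 of complex V to 1.53 and 1.84 times. Of the complex V genes, mt-Atp6 had 6694 and 8476 TPM and mt-Atp8 5801 and 6707 TPM. By itself, mt-Atp6 lay below the nuclear sum in replicate 1 and above it in replicate 2. These sums are over genes and are not numbers of messages, since they do not show whether genes shared a message. In complexes IV and V the mitochondrial sums differed more between the libraries than the nuclear ones, with complex V at 12494 and 15183 TPM from the mitochondrial genome and at 8167 and 8247 TPM from the nucleus.

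Assembly factors, which help build the complexes and do not stay in them, were lower than the subunits. All 45 listed factors were at 1 TPM or more, with a median of 35.1 TPM, from 218 TPM for Uqcc2, a factor for complex III, and 163 TPM for Coa3, a factor for complex IV, to 1.73 TPM for Pet117. The 12 citrate cycle enzymes, which feed electrons to the chain, had a median of 112 TPM, with Mdh2 highest at 471 TPM and Suclg2 lowest at 15.7 TPM. Known regulators of mitochondrial genes were lower again: 14 of them had a median of 18.4 TPM, led by Tfam, the packaging factor of mitochondrial DNA, at 51.1 TPM. Of proteins that work with the chain but fall outside the symbol rule, Atpif1, an inhibitor of ATP synthase, had 1002 and 935 TPM, Ndufab1, the acyl carrier protein found in complex I, 460 and 451 TPM, and Cycs, the cytochrome c of body cells, 56.0 and 55.7 TPM.

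The 2 libraries differed little in the members. Log2 ratios of replicate 2 over replicate 1 were taken from expected counts scaled by the trimmed mean of edgeR, for genes with a mean of 50 counts or more, which 79 of the 85 members passed. The median ratio was -0.04 over these members and 0.01 over the 13927 genes compared, and 29 members were higher and 50 lower in replicate 2. With only 2 libraries these ratios compare the pools and have no replicate check. Among genes with a mean of 1000 counts or more, the SD of the ratios was 0.08 over 75 members and 0.18 over 6588 genes, and 100% of those members were less than 25% apart (the ratio of the larger to the smaller), beside 93.2% of those genes.

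A member was called apart when the ratio was 1.5-fold or more and its 95% exact counting interval excluded equality. No member was called higher in replicate 2 (0 of 79), beside 1.90% of all genes compared, and 1 was called higher in replicate 1, beside 4.68%. At a limit of 25% apart the counts of members were again 0 and 1, beside 6.65% and 11.0% of genes. The member called was Cox6b2, with 79 and 35 counts, a log2 ratio of -0.93 and an interval from -1.56 to -0.35. Its share in coding transcripts also differed, at 80.1% and 54.3%. At a minimum of 200 counts it is not compared and 0 members are called, beside 3.004% of genes in either direction, and at 2-fold 0 members are called, beside 1.38%.

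Counting intervals excluded equality in 33 of the 75 members with 1000 counts or more, or 44.0%, beside 59.8% of the 6588 genes of that depth. After Cox6b2, the largest ratios toward replicate 1 were in complex I: Ndufb8, an accessory subunit of the membrane arm, with 381 and 324 TPM and a log2 ratio of -0.24, Ndufa1, with -0.21, Ndufb7, with 270 and 238 TPM and a ratio of -0.20, and Ndufs7, a core subunit next to the ubiquinone site, with 227 and 201 TPM and a ratio of -0.20. Toward replicate 2 they were Ndufb4 with 0.28, Ndufa4l2 with 0.20, Ndufa9, with 145 and 161 TPM and a ratio of 0.13, Atp5s with 0.12, and Ndufc2, with 331 and 360 TPM and a ratio of 0.10. The intervals of Ndufa4l2 and Atp5s included equality, and the ratio of Ndufb4 depends on its copy.

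By complex, 27 of 35 complex I members were lower in replicate 2, with a median of -0.04, and so were 7 of 7 core subunits, from -0.01 for Ndufs1 to -0.20 for Ndufs7. The remaining medians were -0.05 for complex II, 0.00 for complex III, 0.01 for complex IV and -0.01 for complex V. The difference between complexes was not tested. Of the 44 assembly factors compared, 30 were lower in replicate 2, with a median of -0.06, while 10 of the 13 mitochondrial genome subunits were higher, with a median of 0.10. Against the spike-ins, which shift the median of all genes to 0.56, the median member was at 0.52, and 18 of 79 members (22.8%) were called higher in replicate 2, beside 45.6% of all genes compared. Relative to the median of all genes, which a scaling cannot change, the median member stood at -0.05, with 55 of 79 members below it and 28 of 35 in complex I. With no minimum count it stood at -0.02, with 47 of 83 members below and 25 of 35 in complex I.

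Marker lists moved between the libraries as well. All 8 radial glia and cycling cell markers were higher in replicate 2 (sums of 1958 and 2446 TPM), as were 7 of 7 red blood cell genes and 5 of 5 meningeal fibroblast genes. Of 6 neuron markers, 4 were lower (4119 and 3779 TPM), but factors of cortical neurons were higher, with log2 ratios of 0.31 for Neurod6, 0.28 for Tbr1 and 0.09 for Bcl11b. The part of cell makeup in the ratios of respiratory chain genes was not tested.

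**Figure D5:**
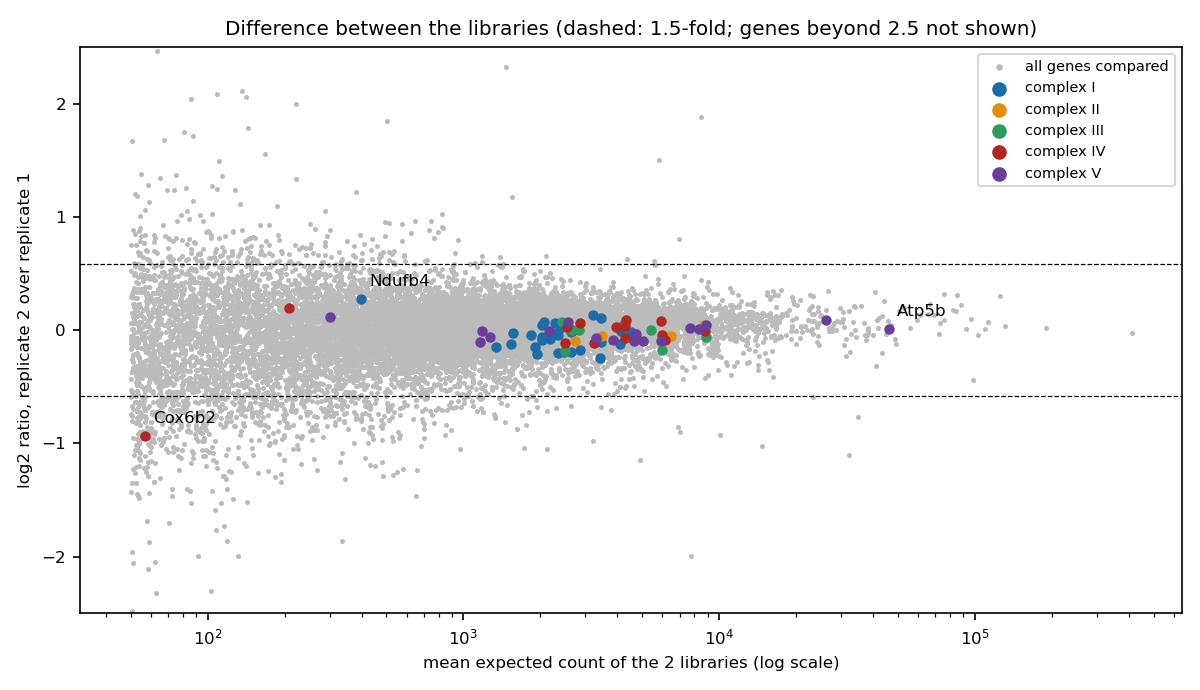
Log2 ratio of replicate 2 over replicate 1 against the mean expected count (log axis) for all genes compared (grey) and for respiratory chain genes by complex (coloured), with dashed lines at 1.5-fold and genes beyond 2.5 not shown. The coloured points lie between -0.25 and 0.28 except Cox6b2, the single one outside the dashed lines.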

How the data were processed

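Total RNA sequencing of 2 forebrain pools gave 1 gene table and 1 transcript table each, not pooled. Per the deposited notes, reads were placed on mm10 and quantified on GENCODE M4; which aligner, quantifier and strand setting were used is not stated in the labels or notes. The authors deposited the expected count of each gene and transcript, unnormalized, as maximum likelihood values and posterior means, per the file headers. The deposited TPM values share 1 fixed sum per library with spike-ins inside, so the spike-in share lowers all other TPM. Deposited FPKM values are per kilobase and per sequencing depth, per the file headers. The percent of its gene that each transcript holds was deposited by the authors, as was the posterior SD of each count, a signal-scale value that was used only to describe uncertainty.

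Gene names, types and positions were taken from GENCODE M21 (GRCm38) by unversioned identifier, with 42462 of 43346 genes matched. Levels are TPM, with a pseudocount of 0.1 for isoform ratios. Ratios between libraries used rounded expected counts, TMM factors of edgeR 4.0.16 (R 4.3.3), a prior count of 0.5, a minimum mean count of 50, and exact Clopper-Pearson intervals (95%, scipy 1.17.1). PCR reads are not independent molecules, so intervals cover counting error only. With 1 group and 2 replicates no p-value was computed, and spread between the pools may be technical. The ratio code was tested on simulated counts. Copies were found with blastn 2.17.0, same strand, among genes typed as protein-coding or pseudogene, and figures used matplotlib 3.10.9.

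The members and lists were chosen with earlier results of these data known. Named are the 10 highest and 10 lowest members, the highest and lowest of each complex, isoform pairs, the 5 largest ratios in each direction, the 8 most divided genes, and the 2 highest and the lowest of other lists where a result turns on them; further members are named for their role in a complex. The copy search with its limits and its restriction to those gene types, the split into coding and non-coding transcripts, the promoter patterns (the NRF1 pattern was shortened after a first search) and the ratio between complex medians were chosen after seeing the data. Alternatives covered posterior means, FPKM, spike-ins taken out, other scalings, count minimums, prior counts, folds and pseudocounts. One marker of the telencephalon list is not reported here.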

Additional observations from a re-analysis of the deposited data

Results flagged for a closer look

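The tables give 10 TPM or more in both libraries to 5 annotated pseudogenes that are near-identical copies of members and are not members themselves. Their counts are a model's division of reads that fit gene and copy alike, so they do not show that a copy was transcribed. Gm10221, a copy of Atp5l, had a mean of 672 TPM. Gm12338, a copy of Cox7c, had 454 TPM. Ndufb4c, a copy of Ndufb4, had 248.6 TPM, Gm10039, a copy of Atp5g1, 237 TPM, and Gm10175, a copy of Atp5g2, 209 TPM. Which of the 2 loci these reads came from was not tested.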

How the results depend on the processing

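Of 37 alternative values for the main results, 29 stayed within the spread or count limit set for them. The median level of 262 TPM was 152 as FPKM, 275 with TPM over genes alone, 280 with near-identical copies added and 236 with coding transcripts only, the last 2 chosen after seeing the data. Without replicate 1 or 2 it was 254 or 269, and the ratio of the highest to the lowest complex median was 2.44 or 2.38. The first gene of a pair was the higher one in 11 of 11 pairs with either library left out, but the pairs were listed with earlier results known. The median ratio between libraries, -0.04, turned to 0.52 with spike-in scaling, which moves all genes, and the number of members apart, 1, became 18 (22.8% of members, beside 45.6% of all genes higher in replicate 2). That number was 0 at a minimum of 200 counts or at 2-fold, where Cox6b2 is not compared or not far enough apart. Single complex medians and pair ratios were outside the spread between libraries in 30 of 91 cases, and the direction of all 11 pairs was the same under every alternative run. Leaving out a library gives no ratio between libraries. No paired analysis was possible because the series has 1 group, so no groups share replicate numbers. Depth limits Cox8b, Cox8c, Cox6a2, Cox7b2 and Cox7a1, all under 20 counts in each library.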
